A study of Mus musculus with 20 samples.

Results

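The genes described here are 10 that build and control the presentation of peptides on major histocompatibility complex (MHC) molecules: H2-Aa, H2-Ab1, H2-Eb1, Cd74, H2-K1, H2-D1, B2m, Tap1, Tapbp and Ciita. They were taken by their gene names on a 1-colour mouse expression array that held 27827 gene names, and all 10 were present, on 22 probes. RNA came from whole kidneys of C57BL/6 mice, per the study's methods males of 8 to 12 weeks, in 5 groups of 4 arrays. Control mice had no surgery and no treatment. IRI mice underwent ischemia and reperfusion injury, in which both renal pedicles were clamped for 45 minutes and kidneys were taken after 6 hours of reperfusion. IRI+Hemin mice received Hemin, an inducer of heme oxygenase 1, at 25 mg/kg 24 hours before the same surgery. IPC+IRI mice had ischemic preconditioning, a clamp of 15 minutes, 7 days before it. Hemin mice had the drug and no surgery. No group had surgery without a clamp, so the effects of surgery and of ischemia cannot be told apart. Preconditioning likewise came with an operation of its own. Nothing in the labels ties 1 array to 1 animal, so p-values measure the spread between arrays.

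Class I molecules display peptides made inside the cell. Their heavy chains, H2-K1 and H2-D1 among them, pair with the light chain B2m, and the peptides reach them through the transporter to which Tap1 belongs and the bridging protein Tapbp. Class II molecules display peptides taken up from outside; H2-Aa and H2-Ab1 encode the alpha and beta chains of I-A, H2-Eb1 the beta chain of I-E, and Cd74 is the invariant chain that guards their groove until they reach the endosome. Ciita is the coactivator that class II genes need. In the kidney, class II is carried mainly by dendritic cells, macrophages and B cells, and tubule cells can acquire it under interferon gamma. In whole tissue, fewer cells of a type and less RNA per cell cannot be told apart.

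Parts of the upstream sequences of 5 of these genes are printed to show which short letter patterns they hold and which they do not share. Promoters from the RefSeq table for GRCm38.p6 were used for 7 of the 10 genes, and none was used for H2-Ab1, Cd74 or Ciita. Whether the full table lists promoters for those genes was not tested. Each line runs 5′ to 3′ and ends upstream of the start site. Capitals in the first pair mark GATTGG (the Y box, bound by NF-Y) and AGNNACNGA (an X box core, bound by the RFX complex), read on both strands. H2-Aa is chr17:34287854-34287923, minus strand, and H2-Eb1 is chr17:34305767-34305842, plus strand.
H2-Aa: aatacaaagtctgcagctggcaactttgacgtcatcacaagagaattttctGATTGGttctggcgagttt
H2-Eb1: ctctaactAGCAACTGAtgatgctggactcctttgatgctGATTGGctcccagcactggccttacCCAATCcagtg
In B2m, chr2:122147542-122147641, plus strand, capitals mark GAAANNGAA (an interferon regulatory factor element) and the Y box.
B2m: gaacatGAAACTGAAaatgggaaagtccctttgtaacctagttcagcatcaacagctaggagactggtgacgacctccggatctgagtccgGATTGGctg
In H2-K1, chr17:34000418-34000477, minus strand, and H2-D1, chr17:35262904-35262963, plus strand, capitals mark GGGNNTNCC, a kappa B pattern, whose matches on both strands overlap in the longer run.
H2-K1: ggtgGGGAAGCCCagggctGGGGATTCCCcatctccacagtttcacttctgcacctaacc
H2-D1: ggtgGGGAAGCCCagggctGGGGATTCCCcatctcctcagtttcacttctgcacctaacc
The H2-K1 and H2-D1 stretches differed at 1 of 60 bases, A37T, counted from 1 at the first base printed. Over the 250 bases upstream of all 32851 promoters in the table, the Y box was found in 14.6%, the X box core in 14.7%, both in 2.05%, the kappa B pattern in 14.03% and the interferon regulatory factor element in 7.13%. The X box core was found in H2-Eb1 and not in H2-Aa, the interferon regulatory factor element in B2m alone, and the Y box and the kappa B pattern in genes of both classes. A match is a run of letters and not a measured site. A missing match does not show that an element is absent, because variants of it that depart from these letters were not searched.

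The probes also differ in how far they can be trusted. H2-K1 and H2-D1 belong to a family of near-identical genes, and 1 H2-D1 probe, chr17:35403132-35403191 on mm9, differed at 3 of 50 overlapping bases from a probe for the class I-like gene H2-Q2, so signals within this family are uncertain. Another H2-D1 probe lies away from the other 2, at chr17:36323454-36323516, and was above background on 4 of 20 arrays. The single H2-Eb1 probe is placed at chr17:34452050-34452511, but the files describe the transcript it was designed on as an I-A beta mRNA, so which beta chain the H2-Eb1 values below read is uncertain. Both H2-Ab1 and H2-K1 have a probe that the files do not place on the genome and that differs from a placed one, shown here over 30 bases with the differing bases in capitals.
H2-Ab1 placed: ttcaTgggcgagtgctactTcaccaacggg
H2-Ab1 unplaced: ttcaAgggcgagtgctactAcaccaacggg
H2-K1 placed: tgaatGtAaccttgattgttatcatCTtga
H2-K1 unplaced: tgaatAtGaccttgattgttatcatTGtga
Counted from 1 at the first base of the placed probe, the H2-Ab1 differences are T5A and T20A among 31 shared bases, and 8 of 57 differed for H2-K1, from G6A to A57C.

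Values below are log2 expression: log2 of a gene's signal, averaged over its probes, relative to the 75th percentile of the same array. The 75th percentile itself was 147 to 358 intensity units, and 56.8 to 67.3% of probes were well above background. No spot of a member was saturated, and members were well above background on every array except Ciita on 1 IRI array. All 8 kidney tubule and glomerulus markers were above background on every array. Arrays of 1 group correlated at 0.975 to 0.995, and Control array 2 correlated better with an array of another group (0.981) than with any of its own (0.978 at most). Each group was hybridised on a slide of its own. Control and IRI were scanned on the same day, as were IPC+IRI and Hemin, so for the other comparisons scan day and group cannot be told apart. No comparison, including those within a scan day, can separate an effect of the slide from that of the group. Genes are described as called, or as having risen or fallen, where limma gave an adjusted p-value below 0.05, with the Benjamini-Hochberg adjustment over all genes tested.

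**Figure D1:**
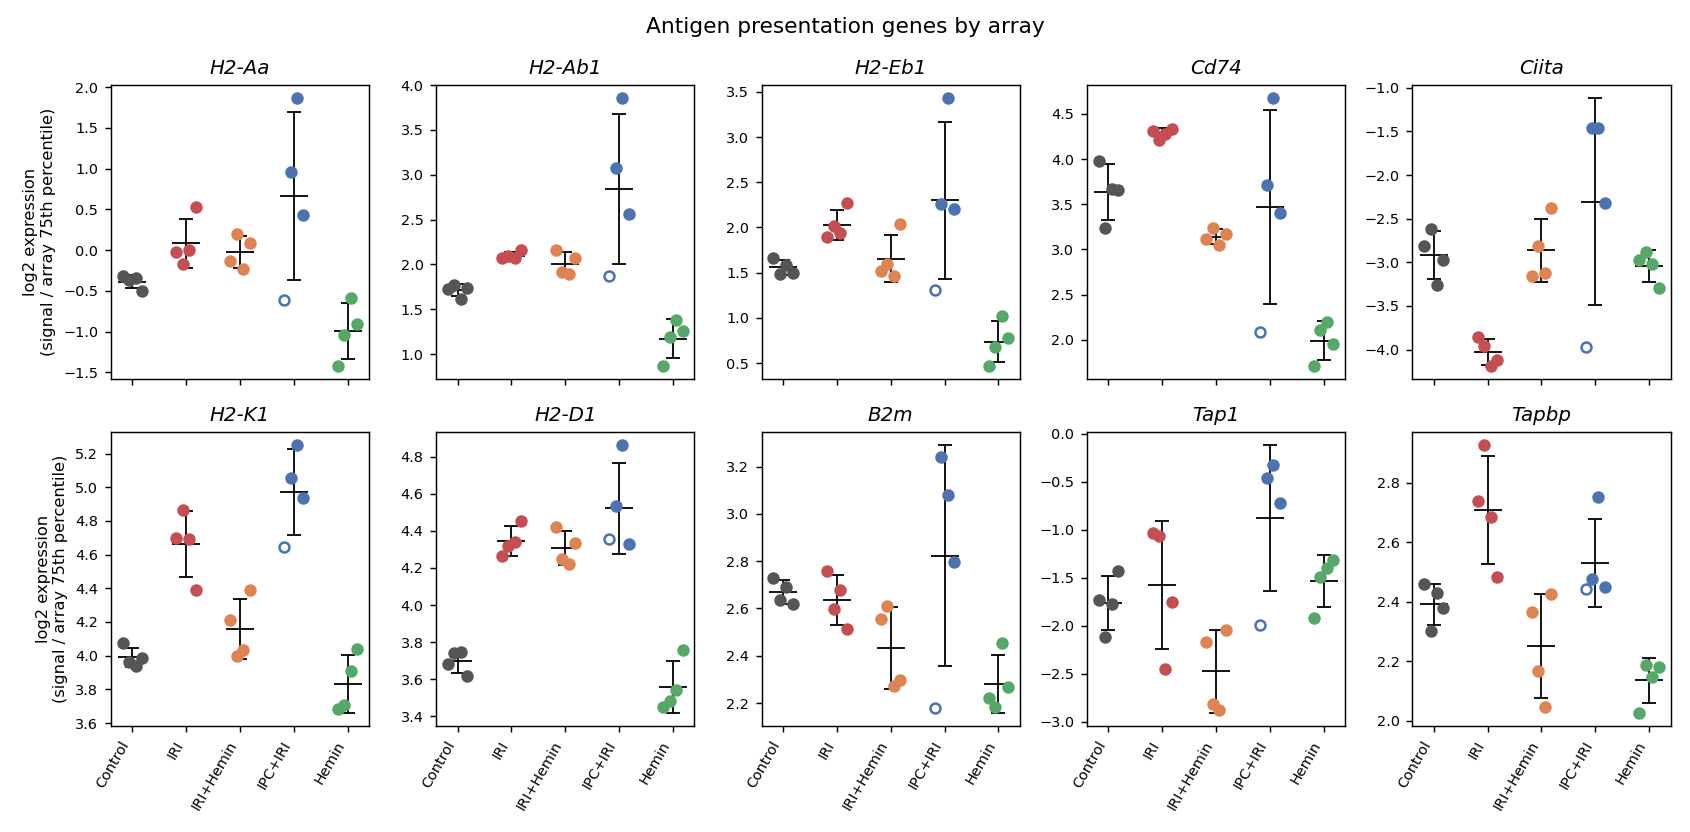
Log2 expression (array signal over its 75th percentile) of the 10 genes on each of 20 arrays, by group. Points are arrays, bars mark the mean and SD of 4 arrays, and the open circle is IPC+IRI array 1, which lies below the other IPC+IRI arrays for the class II genes and Ciita.

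The first question was how these genes differed after surgery with ischemia and reperfusion. In IRI vs Control, the class I heavy chains rose with their loading factor Tapbp, and Ciita fell: 3 members were higher and 1 was lower, where 17.1% of 17711 genes were called higher and 33.9% lower. The median difference was 0.43 over the members and -0.17 over all genes. Higher calls made up 33.5% of all calls, against 56.2% with normexp background correction and 19.6% in the deposited series matrix. H2-K1 read 4.07, 3.96, 3.94 and 3.99 on the Control arrays and 4.70, 4.87, 4.70 and 4.39 on the IRI arrays, a log2 difference of 0.67 (SE 0.13, adjusted p = 0.000484). H2-D1 read 3.68, 3.74, 3.75 and 3.62 in Control and 4.27, 4.32, 4.34 and 4.45 in IRI, a difference of 0.65 (SE 0.11, adjusted p = 0.000116). Every IRI array lay above every Control array for both heavy chains. The call on H2-D1 was lost in 2 of 19 alternatives, the mean of log2 over probes and the series matrix. Tapbp differed by 0.32 (SE 0.11, adjusted p = 0.0231), from 2.30 to 2.46 in Control to 2.48 to 2.93 in IRI. That rise was on the brighter of its 2 probes (0.33), the other, above background on all 20 arrays, differed by 0.00, and the call was lost in 9 of 19 alternatives. The light chain B2m, at 2.62 to 2.73 in Control and 2.51 to 2.76 in IRI, differed by -0.03 (SE 0.16), and Tap1 by 0.19 (SE 0.34), neither called.

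Class II lay higher in IRI on every array without passing the test in the fit over 20 arrays. H2-Ab1 read 1.72, 1.77, 1.62 and 1.73 in Control and 2.07, 2.10, 2.07 and 2.16 in IRI. The groups did not overlap, and the difference was 0.39 (SE 0.26, adjusted p = 0.229). Cd74 read 3.98, 3.23, 3.67 and 3.65 in Control against 4.31, 4.21, 4.28 and 4.34 in IRI, a difference of 0.65 (SE 0.33, adjusted p = 0.114), and H2-Aa and H2-Eb1 both differed by 0.47 with no overlap. Counting every member, 7 had all IRI arrays above all Control arrays, where 14.8% of genes did, and the exact permutation p of each such split, two-sided, is 0.0286, the smallest that 4 against 4 arrays can give. The fit over all groups takes its error from the IPC+IRI arrays too, where the SD of the 4 class II genes was 0.84 to 1.07 against 0.34 or less in any other group. With only the Control and IRI arrays in the fit, all 4 were called (adjusted p = 0.00755 to 0.0344) and 7 members in all, 6 higher and 1 lower, while Tapbp was not (adjusted p = 0.0581). Without Control array 2 the calls were 2, H2-K1 and H2-D1.

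Ciita, the class II coactivator, fell. It read -2.81, -2.62, -3.26 and -2.97 in Control and -3.86, -3.96, -4.19 and -4.12 in IRI, with no overlap and a difference of -1.11 (SE 0.38, adjusted p = 0.0197). Its signal was dim, and with normexp background correction and an offset of 50 the adjusted p was 0.936. The call was also lost without scaling between arrays (adjusted p = 0.0673), after quantile normalization and without Control array 2. Other members of the class II machinery were as follows. Among 8 regulators of class II transcription, which are factors that bind class II promoters and Prdm1, a repressor of Ciita, 1 was higher and 4 were lower. Prdm1 was 1 of the 4, at least 1.83-fold lower (adjusted p = 0.0153). Its signal was not well above background on any IRI array, so that it was tested only through Control. Here and below such a bound takes the dim group at the lowest signal well above background on each array, or its own where higher. Genes given with such a bound were tested only through the group where they are high. Counts of called pathway and marker genes, here and below, include such genes. Among 5 tested class II partners, peptide editors and ubiquitin ligases that act on class II, none was called either way, with H2-DMa at -0.08 (SE 0.26) and H2-DMb1 at -0.10 (SE 0.24). H2-Ea, the I-E alpha chain, was not above background on any of 20 arrays; C57BL/6 mice are known to lack its transcript.

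Around the class I members, 5 of 13 tested class I-like genes were higher and none was lower, led by H2-Q5 at 0.62 (SE 0.17) and H2-Q10 at 0.56 (SE 0.11), all subject to the sequence overlap described above. In class I loading none of 8 other genes was higher and 2 were lower, Tapbpl, a relative of Tapbp, by 0.40 (SE 0.10, adjusted p = 0.00396) and the chaperone Pdia3 by 0.42 (SE 0.16, adjusted p = 0.0338). The second transporter subunit Tap2 differed by -0.29 (SE 0.16) and was not called, the immunoproteasome subunit Psmb8 differed by -0.08 (SE 0.27) and was not called, and its partner Psmb9 fell by 0.86 (SE 0.31, adjusted p = 0.0284), the 1 of 5 immunoproteasome genes called. Of 13 interferon gamma signalling genes, 6 were higher and 1 was lower. The chemokine Cxcl10 rose by 3.11 (SE 0.50) and the transcription factor Irf1 by 0.68 (SE 0.19); the cytokine gene Ifng was above background on 1 of 4 IRI arrays and on no Control array. Of 5 tested costimulation genes 4 were higher, with Cd83 at 1.37 (SE 0.53). Cd86 was not well above background on any Control array, so that it was tested only through the group where it is high, and it was at least 1.64-fold higher in IRI (adjusted p = 0.00206). Of the lysosomal processing genes, proteases that cut class II peptides and the invariant chain and the thiol reductase Ifi30, 2 of 8 were higher and none lower, and Ctss differed by 0.54 (SE 0.37), not called.

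Markers of other cells are given beside these values. Summed over 8 macrophage markers, signal was 3.93 to 4.78 times the 75th percentile in Control and 4.49 to 6.00 in IRI. Within that list Cd68 rose by 2.23 (SE 0.32) while Cx3cr1, above background on no IRI array, was at least 2.13-fold lower (adjusted p = 7.79e-06), and the other 6 were not called. The sum over 7 dendritic cell markers was 0.514 to 0.809 in Control and 0.453 to 0.571 in IRI, and none of the 4 tested was higher; Zbtb46 fell by 1.02 (SE 0.16) and Flt3, above background on 1 of 4 IRI arrays, was at least 2.52-fold lower (adjusted p = 0.000105). Over 5 T cell markers the sum was 0.337 to 0.368 in Control and 0.202 to 0.241 in IRI, with no overlap and 3 of 5 lower. Cd3g, 1 of these 3, was above background on no IRI array and tested only through Control, at least 1.38-fold lower (adjusted p = 0.0287). The sum over 5 B cell markers was 0.458 to 0.549 in Control and 0.254 to 0.264 in IRI, with all 3 tested lower, and that over 4 leukocyte markers was 2.46 to 2.84 on the 3 Control arrays with a value for all 4 (Cd52 has none on array 1) and 2.26 to 3.08 in IRI. The sum over 4 neutrophil markers was 0.300 to 0.659 in Control and 2.48 to 8.07 in IRI; S100a9 rose by 3.68 (SE 0.52), S100a8, above background on 2 of 4 Control arrays, was at least 14.6-fold higher (adjusted p = 6.77e-05), Mpo fell by 0.74 (SE 0.21) and Csf3r was not tested. Their part in the member values was not tested.

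**Figure D2:**
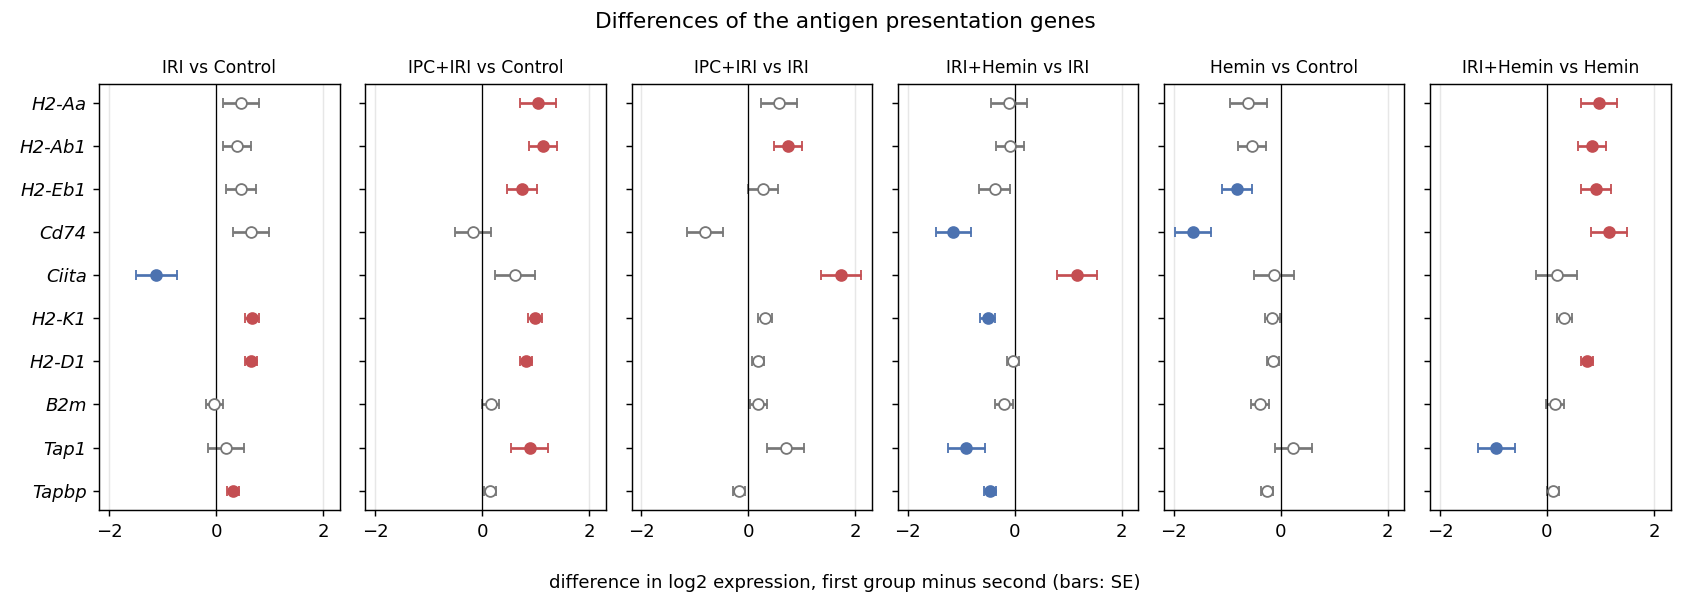
Differences in log2 expression of the 10 genes in 6 comparisons, first group minus second, with SE bars from limma. Filled points were called (red higher, blue lower) and open points were not; H2-K1 and H2-D1 lie near 0.7 in IRI vs Control, and Cd74 lies at -1.64 in Hemin vs Control.

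IPC+IRI vs Control asked how the genes stood in injured kidneys that had been preconditioned. Here 6 members were higher and none lower, where 23.3% of genes were called higher and 32.7% lower. The median difference was 0.78 over the members and -0.09 over all genes; higher calls were 41.5% of all calls, and 75.2% without scaling between arrays, where the median of all genes was 0.35. H2-K1 read 4.64, 5.06, 5.25 and 4.94 on the IPC+IRI arrays, all above Control, with a difference of 0.98 (SE 0.14, adjusted p = 1.27e-05), and H2-D1 read 4.36, 4.53, 4.86 and 4.33, with a difference of 0.82 (SE 0.11, adjusted p = 1.04e-05). H2-Ab1 read 1.87, 3.08, 3.85 and 2.56, also all above Control, with a difference of 1.13 (SE 0.26, adjusted p = 0.00143). These 3 were the members with every IPC+IRI array above every Control array, where 17.7% of genes had that. Among the alternatives, the call on H2-D1 was lost in the series matrix.

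The remaining 3 calls overlapped with Control through array 1. H2-Aa read -0.61, 0.96, 1.86 and 0.43, a difference of 1.05 (SE 0.34, adjusted p = 0.0138), and H2-Eb1 read 1.31, 2.26, 3.43 and 2.21, a difference of 0.75 (SE 0.28, adjusted p = 0.0324). Tap1 read -1.99, -0.46, -0.33 and -0.72 against -1.74, -2.11, -1.77 and -1.43 in Control, a difference of 0.89 (SE 0.34, adjusted p = 0.0359). Array 1 lay within or below the Control range for these genes and arrays 2 and 3 well above it. Cd74, at 2.08, 3.72, 4.67 and 3.40, differed by -0.17 (SE 0.34), and B2m, at 2.18, 3.24, 3.08 and 2.80, by 0.15 (SE 0.17), neither called. Cd74 stood apart from the chains it escorts, which were higher, but without array 1 its difference was 0.29 (adjusted p = 0.28).

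The number of members called went from 3 to 8 as single arrays were left out. Without IPC+IRI array 3, the highest for 8 of the 10 genes, 3 members were called, H2-Ab1, H2-K1 and H2-D1. Without array 1, 8 members were called, B2m (0.37, adjusted p = 0.0152) and Ciita (1.17, adjusted p = 0.000313) among them. It was 4 without Control array 2, Control array 3 or IPC+IRI array 2, and 5 without any 1 of the others. The calls on Tap1 and H2-Eb1 were lost in 6 and 5 of these 8 fits. With only the Control and IPC+IRI arrays in the fit, the count was 3. The macrophage sum was 3.24 on array 1, 7.36 on array 2, 10.6 on array 3 and 6.43 on array 4, and the leukocyte sum was 1.94, 4.41, 7.44 and 3.48, both in the same order as the mean of the 4 class II genes (1.16, 2.50, 3.45 and 2.15). The B cell sum (0.154, 0.246, 0.346 and 0.188) and the T cell sum (0.280, 0.388, 0.550 and 0.293) had that order too, but the dendritic cell sum (0.733, 0.586, 0.701 and 0.546) was highest on array 1. Neutrophil sums, 6.33, 15.45, 19.2 and 6.94 on the IPC+IRI arrays, also had the order of the class II mean. Against Control, 1 of 4 leukocyte markers was higher and none lower, 2 of 8 macrophage markers were higher and 1 lower, 1 of 5 tested dendritic cell markers was higher (Itgax) and 3 were lower (Flt3, Zbtb46 and Xcr1), all 3 tested B cell markers were lower, and 2 of 5 T cell markers were lower and none higher. Their part was not tested.

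**Figure D3:**
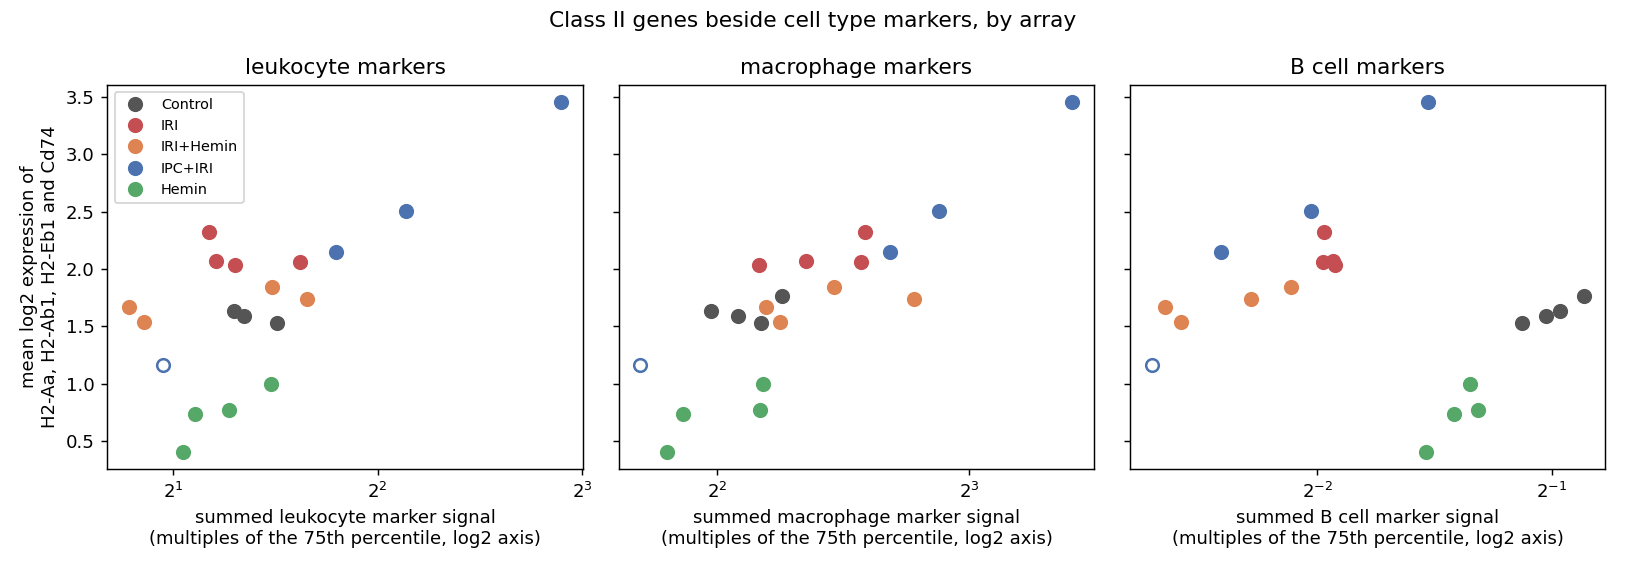
Mean log2 expression of H2-Aa, H2-Ab1, H2-Eb1 and Cd74 on each of 20 arrays against the summed signal of leukocyte, macrophage or B cell markers (multiples of the array 75th percentile, log2 axis). Colours are groups and the open circle is IPC+IRI array 1; Control array 1 has no leukocyte sum; the IPC+IRI arrays run from 1.16 to 3.45 with a rising macrophage sum, and the Hemin arrays lie lowest, at 0.41 to 1.00, within the range of marker sums of the other groups.

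In the surrounding pathway, 8 of 13 class I-like genes were higher and 1 lower. Tap2 rose by 1.13 (SE 0.17) and Psmb8 by 0.67 (SE 0.28), while Psmb9 differed by 0.30 (SE 0.31), not called; 3 of 5 immunoproteasome genes were higher and none lower. Class I loading had 4 of 8 genes higher and 2 lower, and class II transcription 2 and 2 of 8. Of the lysosomal processing genes 3 of 8 were higher and none lower, Ctss by 1.86 (SE 0.37), and of the interferon gamma signalling genes 7 of 13 were higher and 1 lower, Cxcl10 by 2.88 (SE 0.50) and Irf1 by 1.05 (SE 0.19). Costimulation had 2 of 5 genes higher and none lower, Cd83 by 2.19 (SE 0.54) and Cd86, not well above background in Control, at least 2.43-fold (adjusted p = 7.67e-05). Class II partners had 1 of 6 higher and none lower, with H2-DMa at 0.50 (SE 0.26) and H2-DMb1 at 0.55 (SE 0.24), neither called.

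IPC+IRI vs IRI asked whether preconditioning changed the response to injury. Called higher were 2 members, H2-Ab1 (0.74, SE 0.26, adjusted p = 0.0286) and Ciita (1.73, SE 0.38, adjusted p = 0.00138), and none was lower, where 26.3% of genes were called higher and 17.9% lower. The median difference was 0.29 over the members and 0.09 over all genes. Higher calls were 59.5% of all calls, 90.7% without scaling between arrays, 73.0% in the series matrix and 48.9% with normexp. Ciita read -3.97, -1.46, -1.47 and -2.32 in IPC+IRI, so array 1 lay within the IRI range and the other 3 arrays at least 1.5 above it, on the log2 scale. In every member the arrays of both groups overlapped, where 37.9% of genes had groups apart. Tap1 differed by 0.70 (SE 0.34) and H2-K1 by 0.31 (SE 0.13), and Cd74, alone with Tapbp, was lower by value, by 0.82 (SE 0.33, adjusted p = 0.055). The call on H2-Ab1 ended with only the arrays compared in the fit (adjusted p = 0.127) and without any of 5 of the 8 arrays, to 0.40 (adjusted p = 0.108) without IPC+IRI array 3. Without that array Cd74 was called, having fallen by 1.22 (adjusted p = 0.00205), and Ciita under normexp had an adjusted p of 0.601. Without IPC+IRI array 1, 7 members were higher: H2-Aa, H2-Ab1, H2-Eb1, H2-K1, B2m, Tap1 and Ciita.

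Of the class I supply genes, Tap2 rose by 1.42 (SE 0.16) in IPC+IRI vs IRI, Psmb9 by 1.16 (SE 0.31) and Psmb8 by 0.75 (SE 0.27), with no overlap between the groups for Tap2 and an overlap for both subunits. Called higher were 4 of 5 immunoproteasome genes and 7 of 13 class I-like genes, and none was lower. Class I loading was mixed, 4 of 8 genes higher and 2 lower. H2-DMb1, part of the peptide editor of class II, rose by 0.65 (SE 0.24), H2-DMa differed by 0.59 (SE 0.26) without a call, Ctss rose by 1.32 (SE 0.37), and the repressor Irf2 fell by 1.19 (SE 0.26), while Irf1 (0.36, SE 0.19) was not called. Class II transcription had 4 of 8 genes higher and 2 lower, lysosomal processing 2 of 8 higher and 1 lower, class II partners 2 of 6 higher and none lower, interferon gamma signalling 1 of 13 higher and 3 lower, and none of 5 costimulation genes was called. In the same comparison 2 of 4 leukocyte markers and 2 of 5 T cell markers were higher and none lower, 2 of 7 tested macrophage markers were higher and 1 lower, and 3 of 5 endothelial markers were lower and none higher. No dendritic cell (5), B cell (2) or neutrophil marker (4) that was tested was called. Leukocyte sums were 1.94 to 7.44 in IPC+IRI and 2.26 to 3.08 in IRI, and their part was not tested.

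IRI+Hemin vs IRI asked what Hemin given before surgery changed. H2-K1, Tap1, Tapbp and Cd74 fell and Ciita rose: 4 members were lower and 1 was higher, where 18.1% of genes were called lower and 26.3% higher. Over the members the median difference was -0.29, and over all genes 0.08. Higher calls were 59.2% of all calls, 91.4% without scaling between arrays, 76.7% in the series matrix and 44.6% with normexp. Cd74 read 3.11, 3.24, 3.04 and 3.17 in IRI+Hemin, more than 0.9 below every IRI array, a difference of -1.14 (SE 0.33, adjusted p = 0.0102). H2-K1 read 4.21, 4.00, 4.03 and 4.39, a difference of -0.50 (SE 0.13, adjusted p = 0.00585), and Tapbp read 2.37, 2.17, 2.05 and 2.43, a difference of -0.46 (SE 0.11, adjusted p = 0.00288). The groups did not overlap for these 3 genes, where 15.5% of genes lay wholly lower in IRI+Hemin and 23.3% wholly higher. The fall of Tapbp was on its brighter probe (-0.48), the other differing by -0.04. Tap1 read -2.17, -2.81, -2.88 and -2.04 against -1.03, -1.07, -2.45 and -1.75 in IRI, an overlap, with a difference of -0.90 (SE 0.34, adjusted p = 0.0405). The call on Tap1 was lost when any of 5 of the 8 arrays was left out (adjusted p up to 0.125), with the replicate block and with only the arrays compared in the fit.

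H2-D1 did not follow H2-K1. It read 4.42, 4.25, 4.22 and 4.34, a difference from IRI of -0.04 (SE 0.11, adjusted p = 0.808), and whether its difference departed from that of H2-K1 was not tested. Among the H2-K1 probes the fall ranged from -0.74 to -0.09, the latter on the probe at chr17:34136478-34136724. H2-Aa (-0.10, SE 0.34), H2-Ab1 (-0.09, SE 0.26) and H2-Eb1 (-0.38, SE 0.28) were not called, so the invariant chain moved without a called change in the chains it escorts. Ciita read -3.16, -2.81, -3.12 and -2.37, above all IRI arrays, a difference of 1.17 (SE 0.38, adjusted p = 0.018), which turned to -0.14 (adjusted p = 0.646) under normexp correction. Its call was also lost without IRI+Hemin array 4 (adjusted p = 0.0569). Under normexp correction Tap1 was the 1 member called. With no scaling between arrays, where the median of all genes moved to 0.45 from 0.08, Ciita was the 1 member called. There Cd74 was at -0.78, H2-K1 at -0.14 and Tapbp at -0.09. Relative to the median of all genes Cd74 was at -1.23, H2-K1 at -0.59 and Tapbp at -0.54. These relative values are the same with and without scaling, which shifts all genes of an array alike.

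Of 13 interferon gamma signalling genes, 7 were lower in IRI+Hemin vs IRI and none higher, with the GTPase Gbp2 at -1.43 (SE 0.50) and the chemokine Cxcl9 at least 7.27-fold lower (adjusted p = 0.00589), the latter above background on 1 of 4 IRI+Hemin arrays, tested only through IRI and overlapping between the groups; Irf1 (-0.40, SE 0.19) was not called. In class I loading 3 of 8 genes were lower and 2 higher, among them the chaperone Pdia4 at -1.79 (SE 0.21) and Tap2 at 0.48 (SE 0.16), opposite in sign to Tap1. Ctss rose by 1.22 (SE 0.37), and Psmb8 (-0.18, SE 0.27), Psmb9 (0.04, SE 0.31), H2-DMa (-0.25, SE 0.26) and H2-DMb1 (-0.30, SE 0.24) were not called. Class II transcription had 4 of 7 genes higher and 2 lower, lysosomal processing 2 of 8 higher and 1 lower, class I-like 2 of 14 higher and none lower, the immunoproteasome 1 of 5 higher and 1 lower, costimulation none of 5 higher and 2 lower, and none of 5 class II partners was called. H2-T24, 1 of the 2 class I-like genes, was above background on no IRI array and was tested only through IRI+Hemin. Its IRI+Hemin mean (-5.22) lay below the bound for IRI (-4.70), so no fold is given. Macrophage sums were 4.58 to 6.88 in IRI+Hemin and 4.49 to 6.00 in IRI, and B cell sums 0.160 to 0.231 and 0.254 to 0.264. Of those tested, 1 of 2 B cell and 1 of 5 T cell markers were lower, 2 of 5 endothelial markers were higher and 1 was lower, and no leukocyte, dendritic cell, macrophage or neutrophil marker was called; their part was not tested.

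Hemin vs Control asked what the drug did in kidneys without injury. Cd74 and H2-Eb1 fell, and H2-Aa and H2-Ab1 lay lower by value without a call. Cd74 read 1.71, 2.11, 2.19 and 1.95 in Hemin, a difference from Control of -1.64 (SE 0.34, adjusted p = 0.00136), and H2-Eb1 read 0.47, 0.68, 1.02 and 0.77 against 1.66, 1.48, 1.59 and 1.49, a difference of -0.82 (SE 0.28, adjusted p = 0.0304). These 2 of 10 members were the ones called, none higher, a share near the background, where 17.6% of genes were called lower and 18.5% higher. Over the members the median difference was -0.32, and over all genes 0.06. H2-Aa read -1.42, -1.04, -0.59 and -0.91 (difference -0.60, SE 0.34) and H2-Ab1 read 0.87, 1.19, 1.38 and 1.26 (difference -0.54, SE 0.26). Every Hemin array lay below every Control array for 6 members, the 4 class II genes, B2m and Tapbp, where 18.1% of genes did so. With only these arrays in the fit all 6 were called lower, B2m by 0.39 (adjusted p = 0.0119) and Tapbp by 0.26 (adjusted p = 0.0416).

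H2-K1 (-0.16, SE 0.14), H2-D1 (-0.14, SE 0.11), Tap1 (0.23, SE 0.34) and Ciita (-0.13, SE 0.38) were not called. Ciita read -2.98, -2.88, -3.02 and -3.30 in Hemin, within the Control range but for 1 array, while the class II genes lay lower. Without scaling between arrays the median of all genes was 0.62, the share of higher among all calls went from 51.3% to 94.7% (35.1% with the 75th percentile taken over probes above background on all arrays), and H2-Ab1, B2m, H2-K1, H2-D1, Tapbp and Ciita turned to values above 0 with none of them called. Cd74 stayed called, and H2-Eb1 was at -0.26 (adjusted p = 0.525), not called. Relative to the median of all genes Cd74 was at -1.70 and H2-Eb1 at -0.88. These relative values are the same with and without scaling, which shifts all genes of an array alike. The call on H2-Eb1 was lost when any of 6 of the 8 arrays was left out.

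The summed markers gave the following beside these values. Macrophage sums were 3.48 to 4.54 in Hemin and 3.93 to 4.78 in Control, leukocyte sums 2.07 to 2.79 and, on 3 Control arrays, 2.46 to 2.84, dendritic cell sums 0.446 to 0.509 and 0.514 to 0.809, and B cell sums 0.345 to 0.402 and 0.458 to 0.549. The dendritic cell and B cell ranges did not overlap; 4 of 7 dendritic cell markers were above background on each Hemin array and 4 to 5 on the Control arrays, and 2 to 4 and 3 to 4 of 5 B cell markers. Clec9a, which marks a dendritic cell subset, was above background on none of the arrays, and Cd79a, part of the B cell receptor, on 4 Control and 0 Hemin arrays. Of the tested markers, 2 of 3 for B cells were lower (Cd79a at least 2.21-fold, adjusted p = 0.0108) and 1 of 4 for dendritic cells (Flt3 by 0.84, SE 0.26), and no leukocyte, macrophage, T cell, neutrophil or endothelial marker was called. Their part was not tested. In the pathway, class I loading had 3 of 8 genes higher and 2 lower, class II transcription 2 of 8 and 1, interferon gamma signalling 2 of 13 and 1, lysosomal processing 2 of 8 and none, the immunoproteasome 1 of 5 and none, class I-like 1 of 14 and none, and costimulation none of 5 in either direction. Tap2 rose by 0.70 (SE 0.17) and H2-Q1 by 0.77 (SE 0.18), Pdia4 fell by 1.11 (SE 0.21), Irf2 fell by 0.92 (SE 0.26) and the class II modulator H2-Oa fell by 0.91 (SE 0.28). No other gene of 5 class II partners was called, H2-DMa at -0.40 (SE 0.26) and H2-DMb1 at -0.21 (SE 0.24). Irf1 (0.23, SE 0.19), Psmb8 (0.06, SE 0.28), Psmb9 (0.07, SE 0.31) and Ctss (0.23, SE 0.37) were not called.

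IRI+Hemin vs Hemin set the same surgery against a Hemin baseline. All 4 class II genes and H2-D1 rose and Tap1 fell, 5 members higher and 1 lower, where 16.5% of genes were called higher and 27.9% lower. The median difference was 0.54 over the members and -0.15 over all genes, and higher calls were 37.1% of all calls, or 47.2% with normexp. H2-Aa read -0.13, 0.19, -0.23 and 0.09 in IRI+Hemin, a difference of 0.97 (SE 0.34, adjusted p = 0.027), and H2-Ab1 read 2.16, 1.92, 1.89 and 2.08, a difference of 0.84 (SE 0.26, adjusted p = 0.0156). H2-Eb1 read 1.52, 1.60, 1.46 and 2.04, a difference of 0.92 (SE 0.28, adjusted p = 0.0142), and Cd74 rose by 1.15 (SE 0.34, adjusted p = 0.0103). No IRI+Hemin array overlapped a Hemin array for these genes or for H2-D1, which rose by 0.75 (SE 0.11, adjusted p = 4.93e-05); 17.1% of genes lay wholly higher in IRI+Hemin and 27.6% wholly lower. Tap1 fell by 0.95 (SE 0.34, adjusted p = 0.0333), a call lost under normexp and when any of 5 of the 8 arrays was left out (adjusted p up to 0.0944), and the call on H2-Aa was lost in 4 of those 8 fits. With the mean of log2 over probes the call on H2-D1 was lost. H2-K1 differed by 0.32 (SE 0.14, adjusted p = 0.0594). Around them Psmb9 fell by 0.88 (SE 0.31) and Tap2 by 0.51 (SE 0.17), Cxcl9, above background on 1 of 4 IRI+Hemin arrays and overlapping, was at least 3.62-fold lower (adjusted p = 0.0434), and Ctss rose by 1.53 (SE 0.37) and Cxcl10 by 1.38 (SE 0.51). Psmb8 (-0.32, SE 0.28), Irf1 (0.05, SE 0.19), H2-DMa (0.06, SE 0.26) and H2-DMb1 (-0.19, SE 0.24) were not called. By list, class I-like had 4 of 14 genes higher and 2 lower, class I loading none of 8 and 4, the immunoproteasome none of 5 and 2, class II transcription 1 of 8 and 2, lysosomal processing 2 of 8 and none, interferon gamma signalling 4 of 13 and 3, costimulation 1 of 5 and none, and class II partners none of 5 in either direction. With no scaling, the median of all genes moved to -0.23 from -0.15 and 1 member was called. Macrophage sums were 4.58 to 6.88 in IRI+Hemin and 3.48 to 4.54 in Hemin, higher without overlap. Neutrophil sums, 2.19 to 9.45 and 0.485 to 1.60, were also higher without overlap. B cell sums went the other way without overlap, at 0.160 to 0.231 and 0.345 to 0.402. Leukocyte sums overlapped, at 1.72 to 3.15 and 2.07 to 2.79. Of the macrophage markers Cd68 was higher and Cx3cr1 lower, 3 of 4 neutrophil markers were higher, and both tested B cell markers, 2 of 5 T cell markers and 1 of 4 tested dendritic cell markers (Zbtb46) were lower, while no leukocyte marker was called. Csf3r, 1 of the 3 neutrophil markers, was above background on no Hemin array and was at least 1.31-fold higher (adjusted p = 0.00185). Cx3cr1, above background on 2 of 4 IRI+Hemin arrays, was at least 1.81-fold lower (adjusted p = 0.0244). The part of these markers was not tested.

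Whether the difference after surgery with ischemia was unlike with and without Hemin was tested as an interaction over the Control, IRI, Hemin and IRI+Hemin groups. None of the 10 members was called by limma, where 5.83% of 19058 genes were called higher and 1.96% lower (74.9% of calls higher, 64.6% after quantile normalization and 88.8% in the series matrix), and 2 members had an unadjusted p-value below 0.05. These were Ciita, whose ischemia difference was 1.29 higher with Hemin (SE 0.54, adjusted p = 0.157), and Tap1, whose difference was 1.13 lower by value, at -1.13 (SE 0.49, adjusted p = 0.175). With only those 4 groups in the fit Ciita was called (adjusted p = 0.00605). Of the pathway genes 2 were called, Irf9 at -1.04 (SE 0.30) and Rfxank, a subunit of the RFX complex, at 0.64 (SE 0.19). The values of Irf1 (-0.63, SE 0.26), Tap2 (-0.22, SE 0.23), Psmb8 (-0.24, SE 0.39), Psmb9 (-0.02, SE 0.44), Ctss (0.99, SE 0.52), H2-DMa (0.14, SE 0.37) and H2-DMb1 (-0.09, SE 0.35) were not called.

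The IPC+IRI and Hemin groups, which were scanned on the same day on different slides, were also compared directly. They differ in preconditioning, surgery with ischemia and Hemin at once. The pair was chosen after the data were seen, where most members had their highest mean in IPC+IRI and their lowest in Hemin. The comparison is therefore no check of the others. All members except Tap1 and Ciita were higher in IPC+IRI, 8 in all and none lower, where 13.2% of genes were called higher and 22.8% lower. The median difference was 1.05 over the members and -0.15 over all genes, and higher calls were 36.6% of all calls, from 23.8% in the series matrix to 49.2% with normexp. The differences ran from 0.39 for Tapbp (SE 0.11) and 0.54 for B2m (SE 0.17) through 1.14 for H2-K1 (SE 0.14) to 1.67 for H2-Ab1 (SE 0.26), and Cd74 differed by 1.48 (SE 0.34). Every IPC+IRI array lay above every Hemin array for 5 members and the arrays overlapped for the other 5. Of all genes 14% lay wholly higher and 24.7% wholly lower. The call on B2m was lost without IPC+IRI array 2 or 3, without scaling, in the series matrix and with only the arrays compared. That on Tapbp was lost under normexp, without scaling, with the mean of log2 over probes and in the series matrix. Of the pathway genes, Cd83 rose by 2.21 (SE 0.54), Cxcl10 by 2.21 (SE 0.51), Ctss by 1.63 (SE 0.37), H2-DMa by 0.90 (SE 0.26), H2-DMb1 by 0.76 (SE 0.24), Irf1 by 0.82 (SE 0.19) and Tap2 by 0.43 (SE 0.17), while Psmb8 (0.61, SE 0.28) and Psmb9 (0.24, SE 0.31) were not called. By list, class I-like had 7 of 14 genes higher and 1 lower, class II transcription 1 of 8 and 2, and none was lower among class I loading (1 of 8 higher), lysosomal processing (1 of 8), interferon gamma signalling (6 of 13), costimulation (2 of 5) and class II partners (2 of 6). Of 8 macrophage markers 2 were higher and 1 lower, of 4 neutrophil markers 3 and 1, and of 5 tested dendritic cell markers 1 and 2. Of 4 leukocyte markers 1 was higher and none lower. Of 2 tested B cell markers 1 was lower, as was 1 of 5 endothelial markers, and no T cell marker was called. Csf3r, above background on no Hemin array, was at least 1.69-fold higher. Cx3cr1, above background on 2 of 4 IPC+IRI arrays, was at least 1.77-fold lower. The part of these markers was not tested.

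Probes of H2-Ab1, H2-K1 and H2-Aa moved alike in IPC+IRI vs Control. In IPC+IRI vs Control the 4 H2-Ab1 probes differed by 0.99 to 1.49, the 4 H2-K1 probes by 0.57 to 1.04 and both H2-Aa probes by 0.88 and 1.24. The Tapbp probes differed in sign there, at -0.12 and 0.16. In B2m, the probe at chr2:121974599-121974658 differed by 1.05 and the other 2 by 0.09 and 0.16. That probe was the dimmest of the 3, and it also departed in IRI+Hemin vs IRI, at 0.71 against -0.46 and -0.11. The H2-D1 probe away from the other 2 was above background on 1 Control array and no IRI array, and the others differed by 0.59 and 0.75 in IRI vs Control.

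**Figure D4:**
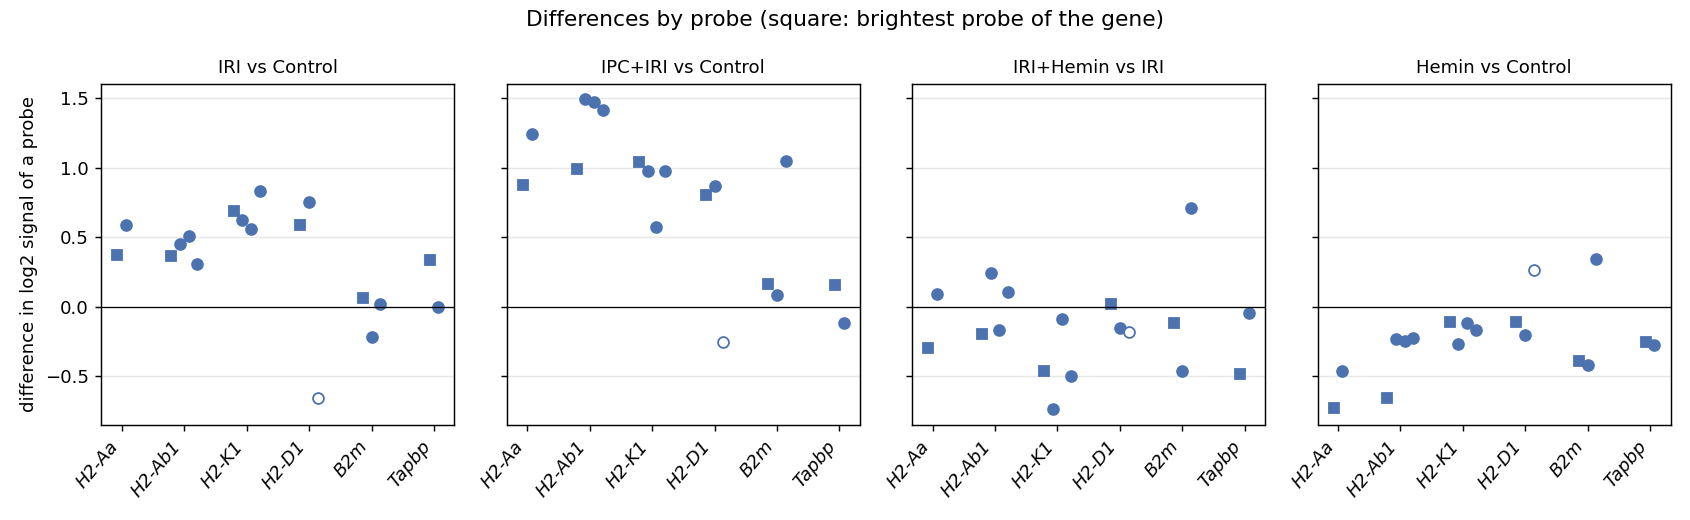
Difference in log2 signal of each probe in 4 comparisons, for the 6 genes with more than 1 probe. Squares are the brightest probe of a gene and the open circle is the H2-D1 probe that was above background on 4 of 20 arrays; B2m has 1 probe at 1.05 in IPC+IRI vs Control with the others near 0.1.

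Across groups, the order of mean levels was the same for H2-Aa, H2-Ab1, H2-Eb1, H2-K1 and H2-D1, from IPC+IRI through IRI, IRI+Hemin and Control to Hemin. Of the neighbours in that order that were tested, IRI and IRI+Hemin were called and did not overlap for H2-K1, nor did Control and Hemin for H2-Eb1; IPC+IRI and IRI were called for H2-Ab1 with overlapping arrays, and no other neighbours were called for these 5 genes. Cd74 was highest in IRI, at 4.28 (SD 0.05, n = 4), and Ciita was lowest there, at -4.03 (SD 0.15, n = 4). Across the 20 arrays, which share slides and scan days within groups, H2-Aa, H2-Ab1 and H2-Eb1 correlated with each other at 0.94 to 0.96 (Pearson r) and with Cd74 at 0.68 to 0.84, whereas Ciita correlated with Cd74 at 0.01. After the group means were removed, Ciita correlated with Cd74 at 0.80 and with the 3 class II chains at 0.75 to 0.80. Those values rest on the IPC+IRI arrays: over the other 16 arrays they were -0.05 for Cd74 and 0.06 to 0.32 for the 3 chains. Among 14518 other genes above background on all 20 arrays, those most like the class II mean were AK005018 (r = 0.939), H2-Bl (0.937), Selplg (0.932), Plek (0.929) and H2-gs10 (0.897). Those most like Tap1 were Tgtp (0.891), Psmb8 (0.869), Cybb (0.833), BC057170 (0.830) and Igtp (0.826), of which Tgtp and Igtp encode GTPases induced by interferon gamma.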

How the data were processed

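RNA of 20 mouse kidney samples was hybridised by the authors to 1-colour Agilent arrays, and the deposited scanner files, made with Agilent Feature Extraction 9.5.3.1 per the submitters' processing notes, hold for each spot a processed intensity, already background-corrected. The deposited series matrix holds the authors' log2 values of the same arrays and was used as an alternative; single-spot values matched log2 of the processed intensity within 0.001. Control and outlier-flagged spots were left out, leaving 41174 probes. Signals were scaled to the 75th percentile of their own array, probes of a gene name were averaged, and log2 was taken. Genes above background on 3 of 4 arrays of a compared group were tested in limma 3.58.1 (R 4.3.3), over all 20 arrays without covariates. The script was tested on simulated data. SAM, the methods' test, was not run. Samples were grouped by their labels. The 10 genes and the pathway and marker lists were chosen with earlier results of these data known. Pathway genes were named by rule: those always followed (Irf1, Tap2, Psmb8, Psmb9, Ctss, H2-DMa, H2-DMb1, Nlrc5, which was not analysed here, and another gene that is not reported here), and in each comparison the 3 called genes with the greatest change; others were chosen after their values were seen. The alternatives changed background correction, scaling, probe averaging, the dim-gene filter, the arrays in the fit, a replicate block and each array left out. The number of arrays limits the precision. Promoter sequences came from the RefSeq table for GRCm38.p6.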

Additional observations from a re-analysis of the deposited data

Results flagged for a closer look

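Of 50 sets of 4 arrays, 1 for each member and group, 1 held an array far from the others by Dixon's test. Tapbp read 2.75 on IPC+IRI array 3 (2.751 before rounding), and the nearest other IPC+IRI array read 2.48. Chance marks about 1 in 20 such sets.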

How the results depend on the processing

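The number of members called moved by more than 1.5 times as follows. With only the arrays compared in the fit it was 7 for IRI vs Control (4 in the fit over all arrays), 3 for IPC+IRI vs Control (6), 1 for IPC+IRI vs IRI (2), 6 for Hemin vs Control (2) and 1 for the interaction (0); leaving out IPC+IRI array 1 from that fit, an alternative added after seeing the data, gave 4 for IPC+IRI vs IRI. Without scaling between arrays it was 2 for IRI vs Control, 1 for IRI+Hemin vs IRI (5), 1 for Hemin vs Control and 1 for IRI+Hemin vs Hemin (6). Under normexp it was 2 for IRI vs Control, 1 for Hemin vs Control and 1 for IRI+Hemin vs IRI, and in the series matrix 2 for IRI vs Control, 3 for IPC+IRI vs Control and 1 for IRI+Hemin vs IRI. Quantile normalization gave 2 for IRI vs Control and 4 for Hemin vs Control, the mean of log2 over probes 2 for IRI vs Control, the 75th percentile over probes above background on all arrays 4 for Hemin vs Control, and requiring signal above background on all arrays 1 for IPC+IRI vs IRI, where Ciita was not tested. Other causes were not tested. IPC+IRI vs Hemin did not move in this way.

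Leaving out arrays singly gave between 2 and 4 calls for IRI vs Control, 3 to 8 for IPC+IRI vs Control, 1 to 7 for IPC+IRI vs IRI, 4 to 5 for IRI+Hemin vs IRI, 1 to 2 for Hemin vs Control, 4 to 6 for IRI+Hemin vs Hemin, 7 to 10 for IPC+IRI vs Hemin and 0 to 0 for the interaction. Same-numbered Control and IRI arrays deviated together at 0.0519 to 0.145 (mean 0.1085, against -0.0353 for their other pairs). In no comparison did every pair exceed 0.1, a cutoff that cannot show whether same-numbered arrays were handled together. With the replicate block the count was 4 for IRI+Hemin vs IRI and unchanged for the other comparisons (4, 6, 2, 2, 6, 8 and 0). A slide block could not be fitted, each group being on 1 slide.

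Of 640 values of called members under an alternative, 534 kept direction and call, 105 lost the call and 1 reversed; of 986 values of members not called, 42 gained a call and 36 reversed. The called one was Ciita in IRI+Hemin vs IRI, -0.1449 under normexp, where H2-Ab1 was 0.1055, H2-D1 0.1722 and B2m 0.0147, and Tap1 in Hemin vs Control -0.0769. Without scaling, B2m was 0.0879 in IRI vs Control, Cd74 0.2699 in IPC+IRI vs Control and Tapbp 0.1393 in IPC+IRI vs IRI; in IRI+Hemin vs IRI H2-Aa was 0.2621, H2-Ab1 0.2747, H2-D1 0.3264 and B2m 0.1611; and in Hemin vs Control H2-Ab1 was 0.0268, H2-K1 0.409, H2-D1 0.4272, B2m 0.1774, Tapbp 0.3094 and Ciita 0.4392. Quantile normalization gave B2m -0.0062 and Tapbp -0.012 in IPC+IRI vs Control and Ciita 0.018 in Hemin vs Control. The brightest probe gave B2m 0.062 in IRI vs Control and H2-D1 0.0235 in IRI+Hemin vs IRI, where the mean of log2 gave B2m 0.0448 and the series matrix H2-Aa 0.0993 and H2-Ab1 0.112. With single arrays left out, Cd74 in IPC+IRI vs Control ran from -0.5691 (without IPC+IRI array 3) to 0.2948 (without array 1), H2-Eb1 in IPC+IRI vs IRI from -0.1013 (without IPC+IRI array 3) to 0.6046 (without array 1), B2m in IRI vs Control from -0.0726 to 0.0085 (without IRI array 4), and H2-Aa in IRI+Hemin vs IRI from -0.1854 to 0.0458 (without IRI array 4). Dim signal limits Ciita, which was not called under normexp in any comparison.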
